A study of Homo sapiens with 10 samples.

Results

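The genes described here are the HOX cluster genes, protein-coding transcription factor genes that lie in 4 tight groups on human chromosomes 7 (HOXA), 17 (HOXB), 12 (HOXC) and 2 (HOXD). They were taken by name: every protein-coding row of the paired-end count table whose symbol is HOXA, HOXB, HOXC or HOXD followed by a number. The rule found 39 of 58051 gene rows, with 11 HOXA, 10 HOXB, 9 HOXC and 9 HOXD genes. No measured value entered the choice. Of the 39, 27 had enough counts to be tested (11 HOXA, 6 HOXB, 6 HOXC and 4 HOXD genes).

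RNA was sequenced from HAP1, a human line with close to a single set of chromosomes that descends from the leukaemia line KBM-7, with and without the gene for the RNA-binding protein RBM4. There were 3 wild type libraries, 3 libraries of RBM4 knockout clone 1 and 2 of RBM4 knockout clone 2, all paired-end, plus 1 single-end library each of wild type and of an RBM4 knockout clone that the labels do not number. All were grown in the same medium with no treatment named, and each library was made from 65 ng of total RNA. Each knockout group is a single clone, so what belongs to the knockout and what belongs to the clone cannot be told apart within it. The labels do not say whether the replicates of a group were grown as separate cultures. The p-values therefore reflect the spread among these libraries, and that spread may be technical.

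HOX proteins bind DNA through a homeodomain and tell embryonic cells where along the head-to-tail axis, and along the limbs, they lie. Genes with the same number in different clusters are paralogs descended from the same ancestral gene, and low numbers act towards the head and high numbers towards the tail. HOX proteins often bind DNA together with TALE homeodomain partners of the PBX and MEIS families. Trithorax-group (MLL) and Polycomb complexes keep the genes on or off, and retinoic acid is a classical inducer of the low-numbered genes. In blood, HOXA9 and its neighbours are active in stem cells and in many leukaemias, among them those with a rearranged MLL gene.

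The likeness of the paralogs bears on how reads can be assigned, so the 48 bases that code for the third helix of the homeodomain, the part that lies in the major groove of DNA, and the residues beside it are shown for HOXC11 and HOXB9, which changed most below, and for the other genes of paralog number 11. The sequences are coding strands from GENCODE 29 (GRCh38), and capitals mark bases that differ from HOXC11.
HOXC11: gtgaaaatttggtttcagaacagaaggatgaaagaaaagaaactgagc
HOXA11: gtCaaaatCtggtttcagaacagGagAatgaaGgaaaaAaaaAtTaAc
HOXD11: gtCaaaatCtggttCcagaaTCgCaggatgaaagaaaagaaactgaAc
HOXB9: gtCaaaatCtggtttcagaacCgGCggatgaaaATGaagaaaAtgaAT
HOXA11 differed from HOXC11 at 9 of these 48 bases, HOXD11 at 7 and HOXB9 at 11. Over the whole homeobox of 180 bases, HOXC11 was 82.2% identical to HOXA11 and 81.7% to HOXD11. Across the 39 genes, identity of the homeobox ran from 69.4% to 90.6% (median 81.7%, 42 pairs) between genes of the same number and from 47.8% to 91.1% (median 60.6%, 699 pairs) between genes of different numbers. A read of 75 bases still told most of them apart. Only 6 of the 39 genes shared any exact stretch of 75 transcript bases with another HOX gene, and these were overlapping pairs of the same cluster (HOXB3 with HOXB6, HOXC4 with HOXC6 and HOXD10 with HOXD11). Stretches shared with a noncoding or read-through row of the cluster were found in 11 genes and covered 62.0% of the windows of HOXD3 and 74.3% of those of HOXD4, so counts of these genes are uncertain. HOXC11, HOXB9 and HOXB13 shared no such stretch with either. The windows were compared on the transcribed strand, so overlaps of genes on opposite strands, such as HOXC11 with the noncoding gene HOTAIR, could not show.

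The targeted gene was checked first. RBM4 had 79.8, 79.8 and 78.7 CPM in the wild type libraries, 22.3, 22.9 and 24.5 in those of clone 1 and 25.3 and 25.8 in those of clone 2, a log2 change of -1.77 (SE 0.06, adjusted p = 4.43e-10) in clone 1 and -1.64 (SE 0.06, adjusted p = 1.37e-09) in clone 2, so its RNA was lower in both clones but still counted. CPM are counts scaled to the TMM-adjusted library total. The paired-end libraries held 33192095 to 55617525 counts each, 3 counts (the upper limit that a count of 0 allows) corresponded to 0.0541 to 0.0906 CPM, and intervals and limits cover counting error only. Of 16 blood markers, 7 had no more than 3 counts in any paired-end library, among them GATA1, MPO and HBG1 at 0 in all, and the 16 together summed to 134 to 140 CPM in wild type, 145 to 150 in clone 1 and 140 to 142 in clone 2. The 6 epithelial markers, 2 of them at no more than 3 counts in any library, summed to 41.2 to 47.3 CPM in wild type, 56.7 to 64.7 in clone 1 and 68.9 to 75.9 in clone 2. The 9 fibroblast and mesenchyme markers, 4 of them at no more than 3 counts in any library (COL1A2, DCN and LUM at 0), summed to 23.3 to 24.7, 28.2 to 33.7 and 34.8 to 36.2 CPM, and the 4 pluripotency markers, 1 of them (NANOG) at no more than 3 counts, to 714 to 762, 632 to 643 and 580 to 606 CPM. The sums of the 4 neural progenitor markers overlapped between the groups (715 to 924 CPM). Sums can hide members that move apart. In the mean of the clones, log2 changes of single tested markers ran from -3.78 to 0.47 in the neural progenitor set. They ran from -0.90 to 0.79 in the blood set, -0.16 to 0.76 in the fibroblast set and -0.08 to 1.36 in the epithelial set. Those of the pluripotency set were -0.31 to -0.13. The part of these markers in the results below was not tested. Bulk RNA cannot tell fewer cells of a type from less RNA per cell.

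HAP1 cells transcribed mainly the HOXA cluster. To compare genes, CPM were divided by exon length in kilobases (RPKM). In wild type the 39 genes summed to 131 ± 3.73 RPKM (SD, n = 3), and HOXA gave 67.3% ± 0.440 of this sum, HOXB 13.2% ± 0.487, HOXC 11.2% ± 0.201 and HOXD 8.26% ± 0.248. HOXA9, the partner of MEIS1 in leukaemia, and HOXA7 led with 20.1 ± 0.668 and 20.01 ± 0.978 RPKM (SD, n = 3) and did not differ beyond their spread. They were followed by HOXA13 (14.8 ± 1.13), HOXA5 (8.26 ± 0.346), HOXB2 (8.22 ± 0.232), HOXA11 (7.95 ± 0.330), HOXA10 (7.45 ± 0.0747) and HOXC8 (7.10 ± 0.279), of which HOXA5, HOXB2 and HOXA11 lay within each other's spread. All 11 HOXA genes were above the limit for testing, and the lowest of them was HOXA2, a hindbrain and pharyngeal arch gene, at 0.584 ± 0.130 RPKM.

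**Figure D1:**
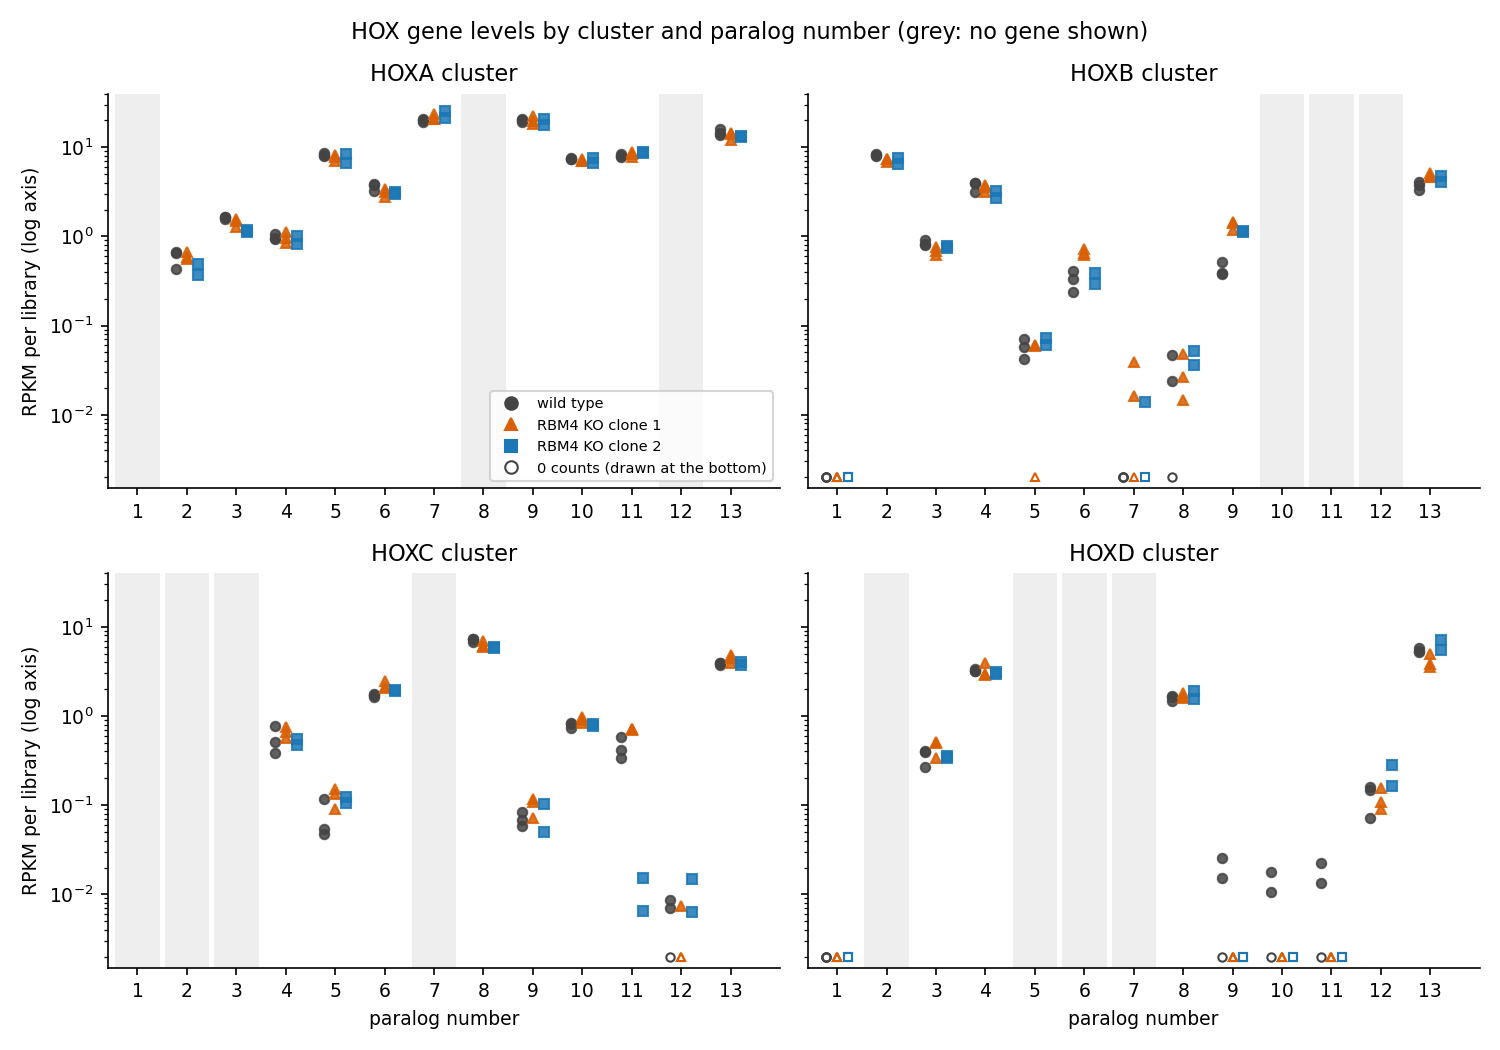
Level of 38 of the 39 HOX genes (RPKM, log axis) in each paired-end library against paralog number, in a panel per cluster, with circles for wild type, triangles for clone 1, squares for clone 2 and open symbols for 0 counts. The HOXA genes shown are all well above 0, HOXB has a gap at numbers 5, 7 and 8, HOXD a gap at 9 to 11, and the clone 2 points of HOXC11 lie far below the rest.

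Number 13 stood highest among the paralog numbers. It held 21.3% of the HOX sum in wild type (27.9 ± 1.61 RPKM), and all 4 of its members were tested: HOXA13 and HOXD13, which pattern the hands and feet, HOXB13, a prostate and hindgut gene, and HOXC13, a regulator of hair keratins. Number 9 followed with 15.8% and number 7 with 15.3%, nearly all from HOXA9 and HOXA7. Numbers 10 and 11 held 6.32% and 6.44%, much as numbers 2, 4, 5 and 8 did (6.43% to 6.75%). Number 12, which lies next to 13, was almost silent at 0.132 ± 0.0518 RPKM (0.101%), and neither of its 2 members was tested. The members of a number were therefore not alike: of the paralogs numbered 9, HOXA9 had 20.1 RPKM, HOXB9 0.427, HOXC9 0.0702 and HOXD9 0.0136.

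Untested genes were HOXB1, HOXB5, HOXB7, HOXB8, HOXC5, HOXC9, HOXC12, HOXD1, HOXD9, HOXD10, HOXD11 and HOXD12, 12 in all, with 0 to 18 counts in any paired-end library. HOXB1 and HOXD1 had 0 counts in all 8. HOXD9, HOXD10 and HOXD11 lay as a block of genes near 0 between HOXD8 (4.18 CPM in wild type) and HOXD12 (0.170 CPM), beyond which HOXD13 stood at 12.2 CPM. Each of the 3 had 2, 1 and 0 counts in the wild type libraries and 0 in every knockout library, which is under the limit that a count of 0 allows, so no difference was detectable at this depth.

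The promoters of HOXD13, at 12.2 CPM, and HOXD10, at or near 0, are shown so that a transcribed and a nearly silent gene of the same cluster can be set side by side. Each is the 250 bases before the RefSeq start (GRCh38.p14, plus strand), with CG pairs, the sites of DNA methylation, in capitals. HOXD13 lies at chr2:176092471-176092720 and HOXD10 at chr2:176116528-176116777.
HOXD13: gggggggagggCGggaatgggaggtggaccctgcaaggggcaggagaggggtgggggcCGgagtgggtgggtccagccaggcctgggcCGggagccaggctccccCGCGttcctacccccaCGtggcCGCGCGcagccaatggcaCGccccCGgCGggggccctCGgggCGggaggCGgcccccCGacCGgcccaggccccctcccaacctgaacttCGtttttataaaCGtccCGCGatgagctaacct
HOXD10: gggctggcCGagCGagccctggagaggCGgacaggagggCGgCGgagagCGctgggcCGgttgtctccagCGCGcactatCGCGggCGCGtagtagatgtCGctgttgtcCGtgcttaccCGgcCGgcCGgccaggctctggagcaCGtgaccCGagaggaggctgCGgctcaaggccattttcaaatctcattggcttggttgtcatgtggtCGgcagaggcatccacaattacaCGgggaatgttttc
HOXD10 had 23 CG pairs in these bases and HOXD13 had 21. RefSeq's table held 27 promoter windows of 300 bases for 20 of the HOX genes, some with several starts, and these had a median of 22 CG pairs against 14 over all 35116 windows. The letters TATAAA, searched on both strands, stood in 5 of the 27 windows, HOXD13 among them, and in 11.5% of all windows. AGGTCA, a half-site of nuclear receptors, was in 0 of 27 (13.8% of all), GGTTCA in 2 (8.6%), the CDX motif TTTATG in 3 (10.6%) and the PBX-HOX motif TGATNNAT in 3 (7.4%). A match is a description of the letters and no evidence of binding.

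The study asked which genes differ between wild type and RBM4 knockout cells, and for most HOX genes the answer was a small or undetected difference. Levels were tested with edgeR's quasi-likelihood test over 20747 features, and a gene was called at an adjusted p below 0.05. In the mean of both clones against wild type, 2 of the 27 tested genes rose (HOXB9, HOXB13) and 3 fell, HOXA3 and HOXC11 among them, or 18.5% in all. Of all features tested, 9.87% rose and 8.09% fell, 18.0% in all. In clone 1, 5 rose (HOXB6, HOXB9, HOXB13, HOXC6, HOXC11) and 1 fell, 22.2% in all, against 9.37% higher and 6.64% lower of all features, 16.0% in all. In clone 2, HOXB9 rose and HOXA3 and HOXC11 fell, 11.1% in all, against 6.18% higher and 4.59% lower, 10.8% in all. Between the clones HOXC11 alone passed, lower in clone 2, 3.7% against 1.1% higher and 0.993% lower, 2.09% in all. These shares are near those of all features, so the number called is not a result about the HOX family. The median log2 change of the 27 was -0.06 in the mean of the clones, 0.02 in clone 1 and -0.08 in clone 2, against 0.00, 0.00 and 0.01 over all features. The HOX sum was 130 ± 6.60 RPKM in clone 1 (SD, n = 3) and 128 ± 10.0 in clone 2 (SD, n = 2), within the spread of wild type.

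These counts moved with 2 properties of the libraries. The GC content of the tested HOX genes (median 54.2%) was above that of all genes (48.3%). Levels were taken relative to each gene's mean over the paired-end libraries and rank-correlated with GC content across genes. The correlation was -0.41, -0.34 and -0.25 in the wild type libraries. It was 0.28, -0.02 and 0.39 in those of clone 1 and 0.35 and -0.05 in those of clone 2. These values compare libraries and do not give the trend of level with GC within a library. With a GC correction of each library, 1 HOX gene was higher and 9 lower in the mean of the clones, 2 and 5 in clone 1, and 1 and 5 in clone 2. Sample numbers in the column names ran from 1 to 5 for all wild type and the first knockout libraries and from 11 to 13 for knockout libraries only. With a term for this split, 4 HOX genes were higher and 3 lower in the mean of the clones. Left out alone, wild type replicate 1 took the clone 1 counts to 1 higher and 1 lower.

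**Figure D2:**
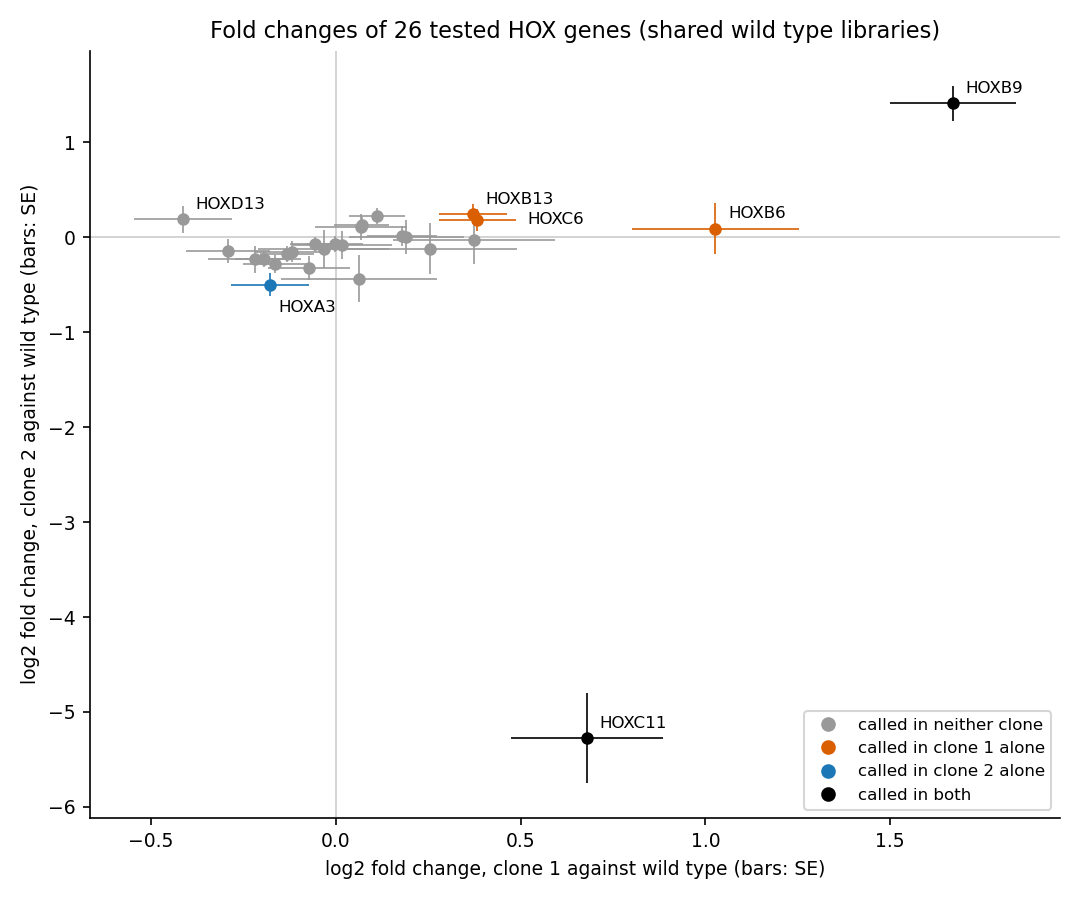
Log2 fold change of 26 of the 27 tested HOX genes in clone 1 (horizontal) and clone 2 (vertical) against the same 3 wild type libraries, with bars for the SE and colours for the calls. Most genes lie near 0 on both axes, HOXB9 is high on both (1.67 and 1.41), and HOXC11 is at 0.68 in clone 1 and -5.28 in clone 2.

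HOXC11, a tail-end gene at chr12:53973126-53977643 (plus strand, GRCh38), was nearly lost in clone 2 and kept in clone 1. It had 46, 47 and 78 counts in the wild type libraries, 78, 126 and 94 in clone 1, and 2 and 1 in clone 2. These are 1.09, 1.34 and 1.89 CPM, 2.36, 2.27 and 2.32 CPM, and 0.0495 and 0.0213 CPM, so the 3 groups did not overlap. Wild type was 42.1 times as high as clone 2 (95% counting interval 14.2 to 206) and clone 1 was 67.3 times as high (22.8 to 328). The fitted log2 change was -5.28 (SE 0.47, adjusted p = 6.47e-06) in clone 2 against wild type and -5.96 (SE 0.44, adjusted p = 1.98e-06) against clone 1, and both passed under each of 17 alternatives. With 3 counts in clone 2, these fitted values depend on the prior count. Clone 1 was itself above wild type by 0.68 (SE 0.21, adjusted p = 0.0388), a call lost under 10 of the 17 alternatives, with adjusted p-values up to 0.183 (without wild type replicate 1). The change of -2.30 in the mean of the clones (adjusted p = 0.000218) is thus the mean of a rise and a fall, and with both clones fitted as 1 group it was -0.04 (adjusted p = 0.985).

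The coding genes HOXC10 and HOXC13 of the same cluster did not follow HOXC11. HOXC10, the next coding gene, had 1.84 ± 0.130 CPM in wild type, 2.11 ± 0.153 in clone 1 and 1.85 ± 0.0857 in clone 2 (SD, n = 3, 3 and 2), with a log2 change of 0.00 in clone 2 (SE 0.18, adjusted p = 0.999). HOXC12, the next coding gene on the other side, had 0 to 2 counts in every library, too few to show a fall. HOXC13 had 9.42 ± 0.272, 10.7 ± 1.10 and 9.48 ± 0.483 CPM, with a log2 change of 0.01 in clone 2 (SE 0.11, adjusted p = 0.975).

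A pair of noncoding genes of the HOXC cluster did differ in clone 2. They were chosen for naming after their values were seen. HOTAIR, a long noncoding RNA known for its study with Polycomb complexes, lies on the opposite strand at chr12:53962308-53974956 and overlaps HOXC11. It had 8, 7 and 16 counts in the wild type libraries, 27, 31 and 18 in those of clone 1 and 1 and 0 in those of clone 2, so clone 2 lay below all others. Wild type was 22.9 times as high as clone 2 (95% counting interval 3.82 to 933), with a fitted change of -4.19 (SE 0.94, adjusted p = 0.0106), which did not pass without clone 2 replicate 2 (adjusted p = 0.0927) or among the libraries with low sample numbers (0.0656). Against clone 1 the change was -5.38 (SE 0.81, adjusted p = 0.00191). The libraries are stranded, but no source used here says whether strand was used in counting, and reads of HOTAIR and HOXC11 may not be fully told apart. HOXC13-AS, an antisense gene at chr12:53935328-53939643, overlaps the start of HOXC13 (chr12:53938765-53946544), so their reads may likewise not be fully told apart. HOXC13-AS went the other way, with 0, 0 and 2 counts in the wild type libraries, 2, 1 and 0 in those of clone 1 and 18 and 22 in those of clone 2. Clone 2 was 27.1 times as high as wild type (7.02 to 231), a log2 change of 4.53 (SE 0.82, adjusted p = 0.00258).

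**Figure D3:**
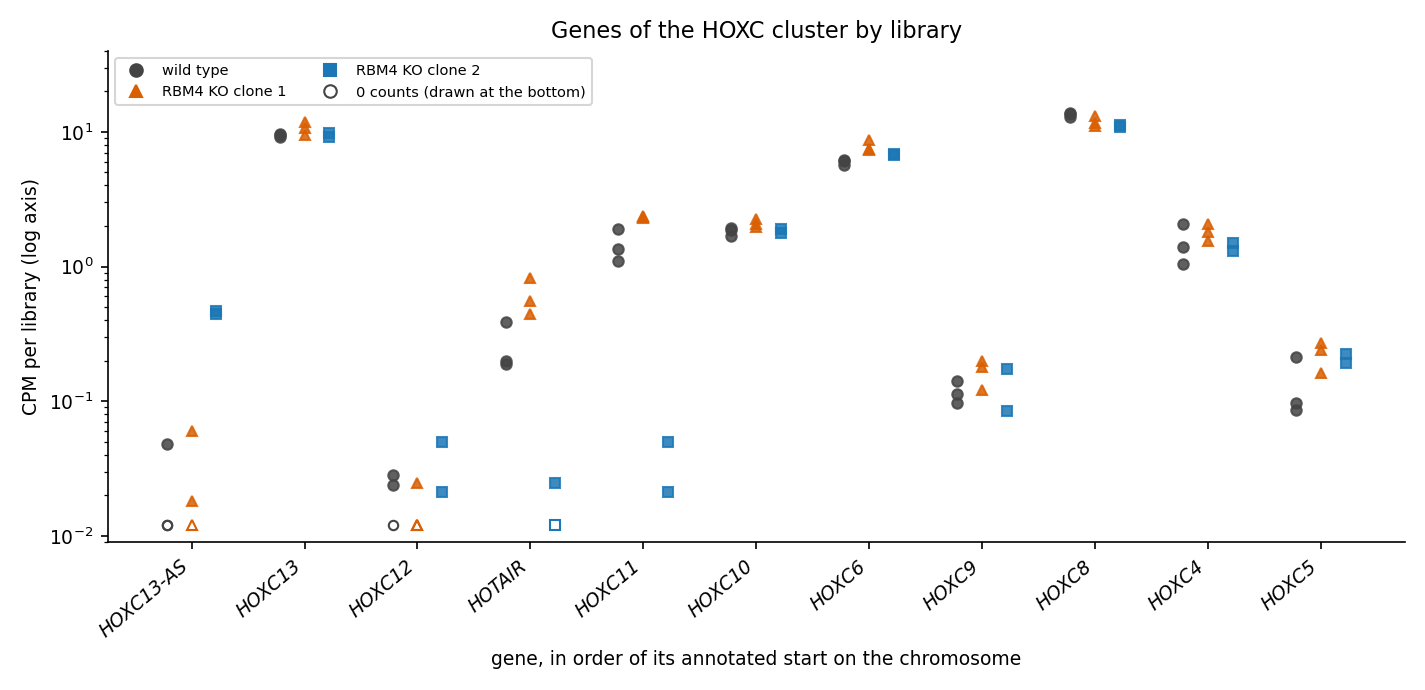
CPM (log axis) per library of the 9 HOXC genes, HOTAIR and HOXC13-AS, in order of their annotated start, with circles for wild type, triangles for clone 1, squares for clone 2 and open symbols for 0 counts. The squares of clone 2 fall away at HOTAIR and HOXC11 and stand above the others at HOXC13-AS, while those of HOXC10, HOXC13 and HOXC8 lie at the level of the other groups.

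HOXB9, a trunk-level gene that also acts in the mammary gland, was the HOX gene that rose in both clones. It had 0.997, 1.34 and 0.970 CPM in the wild type libraries, 3.05, 3.72 and 3.65 in those of clone 1 and 2.90 and 2.93 in those of clone 2, so every knockout library lay above every wild type library. The log2 change was 1.67 (SE 0.17, adjusted p = 2.37e-05) in clone 1 and 1.41 (SE 0.19, adjusted p = 0.000226) in clone 2, or 3.18-fold and 2.66-fold. Both calls held under each of 17 alternatives. The level stayed low for a HOX gene, at 1.35 RPKM in clone 1 and 1.13 in clone 2 against 0.427 in wild type. HOXB8 and HOXB7, its neighbours towards the head, had at most 5 counts in any library.

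HOXB6 was higher in clone 1 alone. It had 0.617, 0.856 and 1.07 CPM in the wild type libraries, 1.90, 1.62 and 1.68 in those of clone 1 and 0.767 and 1.02 in those of clone 2. The clone 1 libraries lay above all others, and those of clone 2 lay within the wild type range. The log2 change was 1.03 in clone 1 (SE 0.23, adjusted p = 0.00803), lost without wild type replicate 1 (0.83, adjusted p = 0.0522), and 0.09 in clone 2 (SE 0.27, adjusted p = 0.893). The difference between the clones, -0.94 (SE 0.25), did not pass (adjusted p = 0.0928). HOXB6 shares 13.6% of its windows of 75 bases with HOXB3, which had a log2 change of -0.29 in clone 1 (adjusted p = 0.1).

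HOXB13, which lies apart from the rest of its cluster, rose slightly. It had 12.96, 11.56 and 13.99 CPM in the wild type libraries, 17.70, 16.17 and 16.07 in those of clone 1 and 16.41 and 14.05 in those of clone 2. The lower clone 2 library lay just above the highest wild type library. In clone 2 it was not called, with a log2 change of 0.24 (SE 0.10, adjusted p = 0.167). The log2 change was 0.37 in clone 1 (SE 0.09, adjusted p = 0.0156) and 0.31 in the mean of the clones (SE 0.08, adjusted p = 0.0226). With the GC correction neither of these 2 calls passed (adjusted p = 0.141 and 0.231). Leaving out wild type replicate 1 gave adjusted p-values of 0.0644 and 0.0895, wild type replicate 2 gave 0.0915 and 0.15, and clone 2 replicate 1 gave 0.0987 for the mean.

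HOXA3, needed for the thymus and parathyroids, fell in clone 2. It had 7.15, 6.73 and 7.08 CPM in the wild type libraries, 5.47, 6.35 and 6.66 in those of clone 1 and 4.80 and 5.06 in those of clone 2. Knockout libraries lay below wild type throughout, those of clone 2 lowest. The log2 change was -0.50 in clone 2 (SE 0.12, adjusted p = 0.0165), -0.34 in the mean of the clones (SE 0.10, adjusted p = 0.0254) and -0.18 in clone 1 (SE 0.11, adjusted p = 0.279). The call in clone 2 was lost without wild type replicate 1 (adjusted p = 0.0594) and without either of its own libraries (0.135 and 0.0606). That in the mean was lost without wild type replicate 1, 2 or 3 (0.0994, 0.0517 and 0.0737) and without clone 2 replicate 1 (0.0738), and with both clones fitted as 1 group (0.108).

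HOXC6, a thoracic-level gene, was higher in clone 1. Its CPM were 6.08, 5.71 and 6.23 in the wild type libraries, 8.76, 7.35 and 7.48 in those of clone 1 and 6.76 and 6.84 in those of clone 2, with no overlap between the groups. The log2 change was 0.38 in clone 1 (SE 0.10, adjusted p = 0.0242) and 0.18 in clone 2 (SE 0.12, adjusted p = 0.393). The call was lost with the GC correction (adjusted p = 0.0801), without wild type replicate 1, 2 or 3 (0.0898, 0.108 and 0.0531) and without clone 1 replicate 1 (0.0868). HOXC6 shares 11.7% of its windows of 75 bases with HOXC4.

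**Figure D4:**
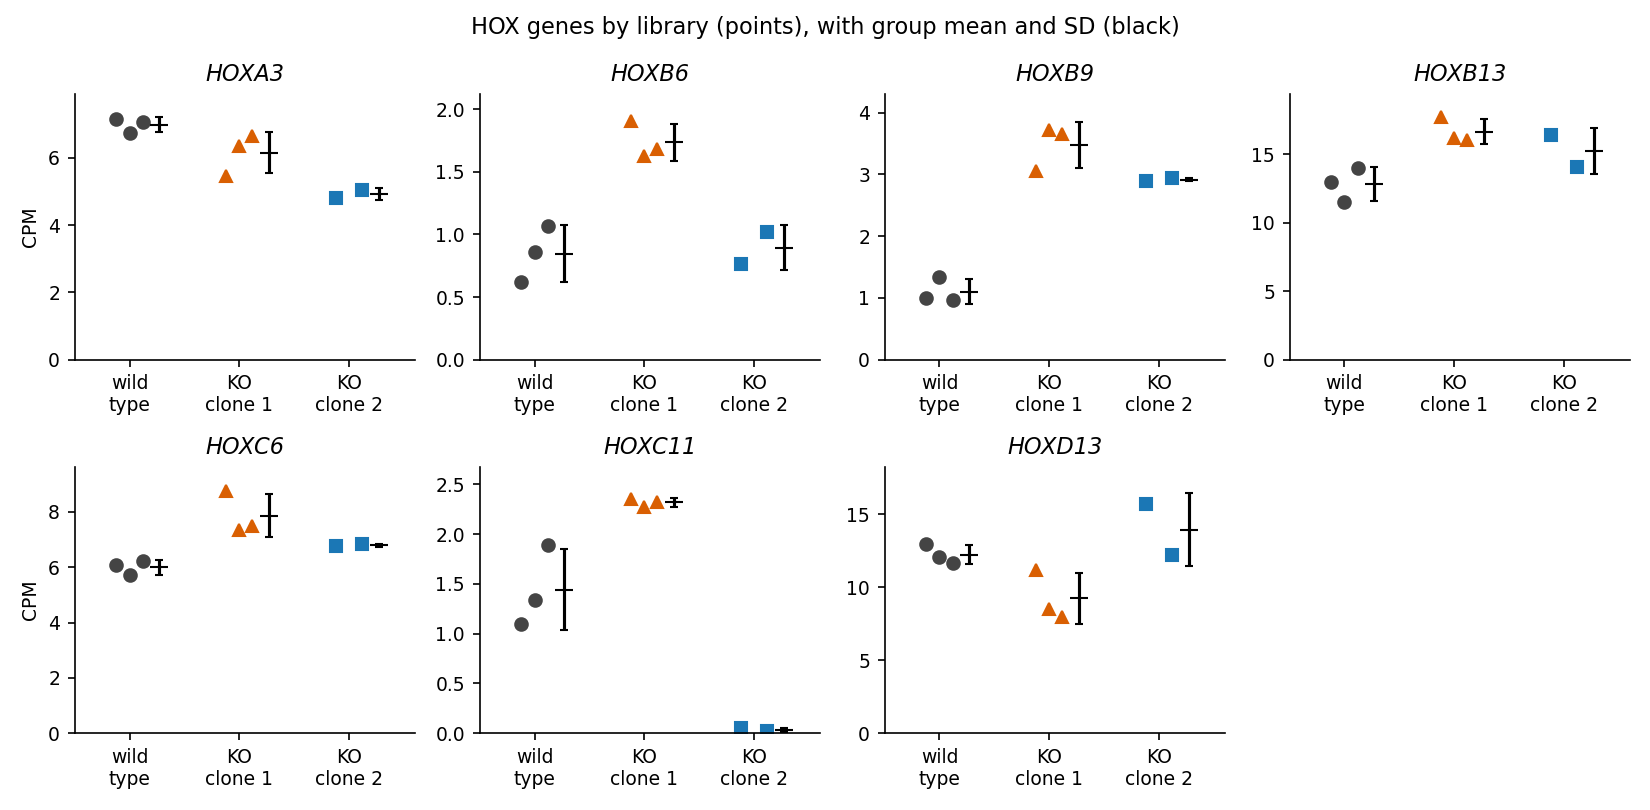
CPM per library (points) with the group mean and SD (black bars) for 6 HOX genes called in a comparison with wild type and for HOXD13, each axis starting at 0. HOXB9 is higher in all 5 knockout libraries, HOXC11 is near 0 in clone 2, and the clone 1 points of HOXD13 lie below those of the other groups.

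The uncalled gene with the highest RPKM of each cluster is given here. That of HOXA overlapped between the groups, and those of HOXB, HOXC and HOXD lay near the threshold in at least 1 comparison. HOXA9 had 62.7, 58.7 and 61.0 CPM in the wild type libraries, 67.5, 59.2 and 55.6 in those of clone 1 and 62.2 and 53.9 in those of clone 2, overlapping groups with log2 changes of 0.00 (SE 0.08) and -0.07 (SE 0.08). HOXB2 had 18.7, 19.1 and 19.8 CPM in wild type against 15.0 to 17.8 in the knockout libraries, which did not overlap, with -0.21 in the mean of the clones (adjusted p = 0.0539). It passed under 6 of 18 alternatives, among them the GC correction (-0.37, adjusted p = 0.000863), with which it also passed in clone 1 (adjusted p = 0.00302) and clone 2 (adjusted p = 0.00516). HOXC8 had 13.8, 12.8 and 13.7 CPM in wild type and 10.9 to 13.2 in the knockout libraries, with -0.22 (adjusted p = 0.0641), and passed under 3 of 18 alternatives, among them the GC correction (-0.29, adjusted p = 0.0183). In the HOXD cluster no gene was called. HOXD13 had 12.9, 12.1 and 11.7 CPM in the wild type libraries, 11.2, 8.54 and 7.97 in those of clone 1 and 15.7 and 12.2 in those of clone 2, so clone 1 lay below the other groups. Its log2 change was -0.41 in clone 1 (SE 0.13, adjusted p = 0.0509) and 0.60 in clone 2 against clone 1 (SE 0.14, adjusted p = 0.0558). They passed under 10 and 8 of 17 alternatives, for example with DESeq2 (adjusted p = 0.0199 and 0.00564) and without clone 1 replicate 1 (0.00309 and 0.00202).

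The single-end libraries, 1 of each kind, allow no test. HOXC11 had 47 counts in wild type and 2 in the knockout clone, a ratio of 22 (95% counting interval 5.75 to 187). HOTAIR had 6 counts and 0. With 3 counts in place of the 0 the ratio is 1.87, which leaves out the counting error of the 6 and is no lower limit. HOXC13-AS had 10 and 22 counts. HOXB9 had 62 and 96 counts, HOXB13 630 and 755 and HOXD13 551 and 583. HOXB6 had 24 counts in each, HOXA3 208 in each, and HOXC6 340 and 315. These tables were not normalized with the paired-end table, so only the direction within the pair can be read.

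The partners and regulators of HOX genes were read from lists of pathway members. Of the 9 TALE cofactors, all tested, 2 rose and 2 fell in the mean of the clones (median log2 change 0.08). That is 44.4% of them, against the 9.87% higher and 8.09% lower, 18.0% in all, of all features in this comparison, which is also the background for the lists that follow. MEIS3 rose from 16.0 ± 1.45 CPM in wild type to 24.5 ± 1.59 in clone 1 and 22.4 ± 2.01 in clone 2 (0.55, SE 0.08, adjusted p = 0.000324). PBX4 rose by 0.37 in the mean of the clones (SE 0.10, adjusted p = 0.0216) and was not called in clone 1. The call in the mean was lost with the GC correction (adjusted p = 0.199) and with the sample-number term (0.064). It was also lost without wild type replicate 1 (0.129), wild type replicate 2 (0.0816) or clone 2 replicate 2 (0.0758). PBX3, the cofactor linked with HOXA9 in leukaemia, had 42.9, 40.5 and 41.3 CPM in the wild type libraries, 32.5, 33.6 and 29.2 in those of clone 1 and 27.4 and 24.5 in those of clone 2, with no overlap (-0.53, SE 0.06, adjusted p = 4.64e-05).

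Among the activators of HOX transcription, 0 of 15 tested rose and 2 fell (median -0.06), 13.3% against 18.0% of all features. CDX2, a homeobox activator of tail-end HOX genes, had 9.07, 8.10 and 7.95 CPM in the wild type libraries, 8.64, 7.04 and 7.23 in those of clone 1 and 5.03 and 4.76 in those of clone 2. Clone 2 lay below both other groups, with log2 changes of -0.78 against wild type (SE 0.13, adjusted p = 0.00119) and -0.64 against clone 1 (SE 0.13, adjusted p = 0.0154). The call between the clones was lost without clone 2 replicate 1 (0.0825) or 2 (0.163) and among the libraries with low sample numbers (0.0517). In the mean of the clones it was -0.46 (adjusted p = 0.00593), lost with both clones fitted as 1 group (0.199). PSIP1, which tethers MLL complexes to chromatin, fell by 0.22 in the mean of the clones (adjusted p = 0.00635), lost with the GC correction (0.147) and without wild type replicate 1 (0.0551). Of 18 Polycomb genes, 1 rose and 4 fell (median 0.00), 27.8% against 18.0%. SUZ12, a core subunit of the complex that methylates histone H3, fell from 148 ± 5.04 CPM to 114 ± 7.02 and 115 ± 4.92 (-0.37, SE 0.05, adjusted p = 0.00027). CBX7, a reader of that mark, rose by 0.49 (adjusted p = 0.00616), and MTF2 and RNF2 had changes of -0.24 (adjusted p = 0.00663) and -0.28 (adjusted p = 0.0109). With the GC correction these 3 did not pass (0.052, 0.168 and 0.247). RNF2 also did not pass without wild type replicate 1 (0.0629) or 3 (0.0626) or with the sample-number term (0.0588), and it was not called in clone 2.

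In the retinoic acid list, 5 of 15 tested genes rose and 4 fell (median 0.09), 60.0% against 18.0% of all features. ALDH1A2, which makes retinoic acid, had 53.0, 48.5 and 50.9 CPM in the wild type libraries, 0.121, 0.144 and 0.0247 in those of clone 1 and 0.569 and 0.595 in those of clone 2, with log2 changes of -8.94 (SE 0.17, adjusted p = 1.46e-12) and -6.44 (SE 0.16, adjusted p = 1.32e-11). RARB, a receptor that retinoic acid itself induces, fell from 0.419 ± 0.120 CPM to 0.0562 ± 0.0543 and 0.0761 ± 0.0727 (-2.54, SE 0.54, adjusted p = 0.00564). The knockout levels lay near the limit that a count of 0 allows, so the size of the fall is uncertain. Its call in clone 2 was lost under 8 of 17 alternatives (adjusted p up to 0.326) and that in clone 1 under 1 of 16. STRA6, a retinol transporter, rose from 2.19 ± 0.0790 CPM to 8.58 ± 0.606 and 12.1 ± 0.0999 (2.22, SE 0.10, adjusted p = 6.93e-09). CRABP1, which binds retinoic acid in the cytoplasm, rose by 0.73 (SE 0.10, adjusted p = 0.000307), and RXRA by 0.28 (SE 0.05, adjusted p = 0.00124), the latter lost with the GC correction (0.24). In clone 2 the call of CRABP1 was lost under 11 of 17 alternatives (adjusted p up to 0.302) and that of RXRA under 6.

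Inside the clusters, 12 of the 20 listed noncoding and read-through genes were tested, of which 2 rose and 0 fell in the mean of the clones (0.08 median), 16.7% against 18.0% of all features. Both lie at the tail end of HOXA. HOTTIP, which starts beside HOXA13, had 16.2, 16.3 and 16.6 CPM in wild type and 18.7 to 21.0 in the knockout libraries (0.28, SE 0.07, adjusted p = 0.00926), lost without wild type replicate 1 (0.0636) or 2 (0.0554) and clone 2 replicate 1 (0.0524). HOXA11-AS, antisense to HOXA11, had 7.55, 7.73 and 8.63 CPM in wild type and 9.88 to 11.2 in the knockout libraries (0.38, SE 0.08, adjusted p = 0.00611). This call was lost with the GC correction (0.127) or without wild type replicate 1 (0.0544), and HOXA11-AS was not called in clone 2. The coding partners were not called: HOXA13 had a log2 change of -0.15 (adjusted p = 0.128) and HOXA11 of 0.10 (adjusted p = 0.328).

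Genes flanking the clusters were read in the same way, and 44.4% of those tested around HOXA, 12.5% around HOXB, 28.6% around HOXC and 42.9% around HOXD were called, against 18.0% of all features. Around HOXA, 0 of 9 tested neighbours rose and 4 fell, among them EVX1, the homeobox gene at the tail end of the cluster (1.34 ± 0.0961 CPM in wild type, 0.738 ± 0.152 and 0.651 ± 0.0107 in the clones, -0.95, SE 0.20, adjusted p = 0.00465), and SKAP2 (-0.28, adjusted p = 0.00215; 0.0522 with the GC correction). CBX3 fell by 0.23 (adjusted p = 0.01), a call lost with the GC correction (0.219) and when wild type replicate 1 (0.0725) or 3 (0.0657) was left out. Around HOXB, 1 of 8 rose, UBE2Z (0.19, adjusted p = 0.0138), lost without wild type replicate 1, 2 or 3 (0.0936, 0.05 and 0.0948) or clone 2 replicate 1 (0.0563). Around HOXC, out of 7, CALCOCO1 rose (0.40, adjusted p = 0.00752), lost without wild type replicate 2 (0.0587). CBX5 fell (-0.20, adjusted p = 0.028), lost without wild type replicate 1 (0.119) or 2 (0.134), without clone 2 replicate 1 (0.0844) and with the GC correction (0.175). UBE2Z, CALCOCO1 and CBX5 were also called in clone 1 by itself. In clone 2, 0 of the 8 neighbours of HOXB and 0 of the 7 of HOXC were called. Around HOXD, 0 of 7 rose and 3 fell, led by CHN1 (67.3 ± 1.44 CPM in wild type, 43.0 ± 0.416 and 50.1 ± 0.875 in the clones, -0.54, SE 0.04, adjusted p = 2.64e-06). The call of HNRNPA3 (-0.15, adjusted p = 0.0368) was lost without wild type replicate 1, 2 or 3 (0.101, 0.148 and 0.144), clone 1 replicate 2 (0.0609) or either clone 2 library (0.148 and 0.1), with no filter (0.0924) and with the replicate block (0.0717), and its change was above 0 with the GC correction. The call of NFE2L2 (-0.20, adjusted p = 0.0392) was lost without wild type replicate 1, 2 or 3 (0.0965, 0.089 and 0.151) or clone 2 replicate 1 (0.142) and with both clones fitted as 1 group (0.102). Taken by clone, NFE2L2 was called in clone 2 and not in clone 1, and HNRNPA3 in neither.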

How the data were processed

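RNA was measured in 10 libraries of HAP1 cells, 8 paired-end and 2 single-end. Per the submitters' processing notes, the authors aligned reads with STAR (version 2.5.2a), and the builds named are hg38 and GRCh38. The deposited tables hold raw counts, unnormalized, of genes and repeat subfamilies, and their names give TEToolkit as the counter. Its version, its strand setting, how it treated reads that align more than once and which annotation it used are not given in the sources. Symbols and positions came from GENCODE 29 (GRCh38) and a gene name table, promoters from RefSeq (GRCh38.p14).

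From these counts, features were filtered with filterByExpr and scaled with TMM, and 20747 were fitted with edgeR 4.0.16 (robust quasi-likelihood F test, a mean for each of the 3 groups of paired-end libraries, R 4.3.3). P-values were adjusted over all 20747 features by the Benjamini-Hochberg method. The 4 comparisons were each clone, their mean and clone 2 against clone 1. Both clones share the wild type libraries. The SE is the log2 change divided by the square root of F and is approximate. RPKM use the length of the union of a gene's exons. The procedure was tested on simulated data. There, 54% of 1.3-fold changes were recovered in the mean of the clones, 42% in clone 1 and 40% in clone 2. For 2-fold changes these were 72%, 64% and 62%, so an uncalled gene may still have changed.

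The members and lists were chosen with earlier results of these data known. Full values are given for each HOX gene called against wild type, the highest uncalled gene of each cluster and up to 3 called members per direction of each other list. A few genes that these rules select are not reported here, though counts of genes include them. HOTAIR and HOXC13-AS were named after their values were seen. Alternatives were DESeq2 1.42.0, RLE factors, TMM from genes only, no filter, a GC correction, a replicate block and a term for sample number. Others were low sample numbers alone, both clones as 1 group and leaving out each of the 8 libraries. The GC correction fitted a smooth curve of relative level against GC content in each library and gave it to edgeR as an offset.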

Additional observations from a re-analysis of the deposited data

Results flagged for a closer look

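Genes whose change against wild type differed between the clones, by edgeR's test of clone 2 against clone 1, are given here because a comparison that averages the clones hides them. Among the HOX genes this was HOXC11, with a log2 difference of -5.96 (adjusted p = 1.98e-06), lower in 2 of 2 clone 2 libraries than in 3 of 3 clone 1 libraries. In the HOXC cluster it was also HOTAIR, at -5.38 (adjusted p = 0.00191), and HOXC13-AS, at 4.12 (adjusted p = 0.00882). The HOTAIR call rests on 1 count in clone 2 and that of HOXC13-AS on 3 counts in clone 1. HOXC13-AS did not pass without clone 1 replicate 2 (adjusted p = 0.0626) or without clone 2 replicate 1 (0.0529) or 2 (0.0843), or among the libraries with low sample numbers (0.378).

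Of the other lists, CDX2 was lower in clone 2 by a log2 difference of -0.64 (adjusted p = 0.0154), lost under 3 of 17 alternatives (adjusted p up to 0.163, without clone 2 replicate 2). In the retinoic acid list, ALDH1A2 was higher in clone 2 at 2.5 (adjusted p = 0.00103) and STRA6 at 0.50 (adjusted p = 0.0212), and CRABP1 was lower at -0.57 (adjusted p = 0.0259). ALDH1A2 did not pass among the libraries with low sample numbers (0.0832). STRA6 was lost under 5 of 17 alternatives, among them without either clone 2 library (0.129 and 0.197) and without clone 1 replicate 1 (0.056) or 2 (0.0557). CRABP1 was lost under 7 of 17, among them without either clone 2 library (0.259 and 0.158), without clone 1 replicate 1 (0.0565) or 2 (0.101), without wild type replicate 1 (0.0502) and with the replicate block (0.0504). No group had the 4 libraries needed to look for a single library that stands apart within a group.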

How the results depend on the processing

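Depth limits the 12 untested HOX genes, and 2 libraries limit clone 2. Counts of HOX genes are given as higher and lower in the mean of the clones (2 and 3 as reported), clone 1 (5 and 1), clone 2 (1 and 2) and clone 2 against clone 1 (0 and 1). With the GC correction the mean had 1 and 9, clone 1 had 2 and 5, clone 2 had 5 lower and the clones differed at 1 higher. The replicate block gave 2 lower in clone 1 and 1 higher between the clones, and with the GC correction and the replicate block together the values were 1 and 8, 2 and 4, 5 lower, and 1 higher. The sample-number term gave 4 higher in the mean, 4 higher in clone 2 and 1 higher between the clones, and low sample numbers alone gave 4 and 3 higher in the mean and clone 2. With both clones as 1 group 1 was lower. DESeq2, RLE factors and TMM from genes only each gave 2 lower in clone 1, and DESeq2 gave 1 higher between the clones. No filter gave 2 lower in clone 1, 2 higher in clone 2, and 1 higher and 2 lower between the clones. For these alternatives, counts that differed at most 1.5-fold from those reported are not listed. Leaving out each library in turn gave 1 to 3 higher and 1 to 5 lower in the mean, 1 to 5 and 1 to 2 in clone 1, 1 and 1 to 3 in clone 2, and 0 to 1 and 1 between the clones. By CPM the HOXA share was 70.6% in place of 67.3%. HNRNPA3 turned to 0.0049 (log2) with the GC correction and 0.014 with the block added. Of single-gene values under the alternatives, 3575 kept their side of the threshold, 261 lost a call, 89 gained one and 2 reversed. Direction was compared only where a value was called as reported or under the alternative. The cause of these moves was not tested. Replicate numbers did not pair wild type with knockout libraries: same-numbered ones had correlations of deviations from -0.233 to 0.054. Between the clones, same-numbered libraries had 0.253 (replicate 1) and 0.197 (replicate 2). Replicate 1 of clone 1 had -0.253 with replicate 2 of clone 2. With 2 libraries in clone 2, their deviations mirror each other, so these values are not independent. Whether the knockout libraries share a batch was not tested.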

Other observations

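The antisense genes of the HOXA cluster had very different counts in the paired-end and single-end tables, which have similar totals. HOXA-AS3, antisense to HOXA3 through HOXA7, had 30 to 65 counts in the 8 paired-end libraries and 1050 and 1031 in the single-end libraries. HOXA-AS2 had 3 to 8 counts and 124 and 116. The coding genes HOXA3 to HOXA7 did not rise in this way. HOXA3 had 181 to 352 counts in the paired-end libraries and 208 and 208 in the single-end libraries, and HOXA4 and HOXA6 also stayed within their paired-end ranges. HOXA7 was lower in the single-end libraries, with 1603 to 2753 counts against 1279 and 1264. HOXA5 had 459 to 734 counts against 498 in single-end wild type and 352 in the single-end knockout. No source used here says how each table was counted, and levels of antisense genes were not compared across the tables.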
